A study of Mus musculus with 24 samples.

Results

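The immediate early and feedback genes are a set of 33 mouse genes chosen by name, of which 32 had a 3′ untranslated region (3′UTR) interval in the deposited tables, out of 20867 genes measured. Dusp5 had no interval used here, and its promoter alone is described. The set holds AP-1 subunits (Fos, Fosb, Jun, Junb and Jund), EGR, KLF and other transcription factors (Egr1, Egr2, Egr3, Klf2, Klf4, Klf6, Klf10, Myc, Atf3 and Nr4a1), immediate early response genes (Ier2, Ier3 and Ier5), and growth or stress regulators (Btg1, Pim1, Gadd45a and Gadd45b). It also holds inhibitors of the signals that start the response: the dual-specificity phosphatases Dusp1, Dusp2 and Dusp6, the JAK-STAT inhibitor Socs3, the NF-κB regulators Nfkbia, Nfkbiz and Tnfaip3, and the mRNA decay factors Zfp36, Zfp36l1 and Zfp36l2.

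These genes were measured by SLAM-seq, which follows the decay of RNA that carries 4-thiouridine (4SU), a uridine analog read as C in place of T after alkylation. The cells were mouse preleukemic cells made with Meis1 and Hoxa9, grown with stem cell factor, IL-6 and IL-3, and exposed to 2.9 µM 4SU for 12 h before the change to medium without it. A first genotype, control, was compared with a second, Tut4/7 Vav-iCre cDKO, in which a Cre driven by the blood cell promoter Vav deletes the terminal uridylyl transferases TUT4 and TUT7, the enzymes that add uridines to RNA 3′ ends. Both carried the Meis1 and Hoxa9 oncogenes and both were exposed to 4SU. Each was collected 0, 60, 180 and 540 min after the change of medium, with 3 replicates at each time and 24 libraries in all.

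Immediate early genes are transcribed within minutes of a growth factor, cytokine or stress signal, from factors already present in the cell, and need no new protein to be switched on. Many of their products, such as phosphatases of MAP kinases and inhibitors of NF-κB or STAT signaling, shut off the signal that induced them. Their transcripts are usually short-lived, and many carry AU-rich elements in the 3′UTR, repeats of the letters ATTTA that proteins of the ZFP36 family bind to start deadenylation and decay.

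Each library held 4380235 to 7041311 reads in 3′UTRs (median 5321078). Abundance is given as CPM, a read count scaled to the library's total of these reads, and since each transcript gives 1 tag near its end, CPM was compared for a gene between libraries and not between genes. Among the members, 24 had at least 1 read in every library and 29 passed the low-count filter in at least 1 comparison between genotypes. Tut4 was at 76.5 to 90.3 CPM in control and 22.2 to 34.7 CPM in cDKO (means at the 4 times), and Tut7 at 39.97 to 59.5 CPM in control and 18.7 to 28.6 CPM in cDKO, although tags in the 3′UTR do not check which exons were deleted. Progenitor markers summed to 10645 to 12059 CPM in the 12 control libraries and 6668 to 9458 CPM in the 12 cDKO libraries. The cultures differed in markers of other cells. Erythroid markers summed to 0.372 to 3.07 CPM in control, with Epor and Hba-a2 at 0, and to 1307 to 2091 CPM in cDKO, with Epor at 0. Mast cell and basophil markers ranged from 15.8 to 34.5 CPM in control, with Cpa3, Fcer1a and Prss34 at 0, and from 132 to 247 CPM in cDKO, with Fcer1a at 0. Monocyte and macrophage markers ranged from 66.9 to 109 CPM in control and from 192 to 302 CPM in cDKO, with Ly86 and Mrc1 at 0 in the latter. Mature neutrophil markers ran the other way, from 19.7 to 38.7 CPM in control and 0 to 1.53 CPM in cDKO. The part of these markers in the differences between genotypes below was not tested, and in bulk cultures fewer cells of a type and less RNA per cell cannot be told apart.

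The AU-rich elements of the members are shown first, since they are the sequence feature these transcripts are known for. The reference 3′UTRs of 25 members could be matched by length and T content to the measured intervals, out of 14954 genes matched in all. The pentamer ATTTA was present in 23 of the 25 (92%), against 60.2% of all matched genes and 75.8% of the 8546 genes whose 3′UTRs lay within the members' length range of 453 to 3110 bases. Ier2 and Gadd45b had none. The median density was 2.71 pentamers per kb in the members and 1.47 per kb in genes of the same length range. The nonamer TTATTTATT, which contains the pentamer and is a preferred site of ZFP36 proteins, was present in 6 of 25 members (24%) and 6.69% of genes of the same length range. The 6 included Zfp36, Zfp36l1 and Zfp36l2, which encode the proteins that read the element. The sites of 5 of these members are shown, and after them the first pentamer of 6 members that the abundance and decay results turn on. Sequences are from GENCODE transcripts (GRCm39), on the strand of the transcript, with the motif in capitals.
Fos, chr12:85523879-85523903, plus strand: ttttcaatTTATTTATTaagatgga
Dusp1, chr17:26725135-26725159, minus strand: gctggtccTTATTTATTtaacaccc
Zfp36, chr7:28076378-28076402, minus strand: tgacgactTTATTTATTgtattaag
Zfp36l1, chr12:80154943-80154967, minus strand: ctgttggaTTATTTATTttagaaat
Zfp36l2, chr17:84492344-84492368, minus strand: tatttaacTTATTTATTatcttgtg
Ier3, chr17:36133377-36133397, plus strand: taattaatATTTAtgtattta
Myc, chr15:61861988-61862008, plus strand: agatttgtATTTAattgtttt
Klf6, chr13:5918013-5918033, plus strand: taagctgtATTTAcaaatcgc
Pim1, chr17:29714093-29714113, plus strand: agcaccatATTTAagtccctg
Dusp6, chr10:99103286-99103306, plus strand: gagctggaATTTAttataaga
Socs3, chr11:117857691-117857711, minus strand: gcagtagcATTTAgaagggag

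The Ier3 window holds a further pentamer in its last letters, and Ier3 had the highest density of the 25, 8.32 pentamers per kb. Klf6 had 7 pentamers in 3110 bases and Pim1 and Dusp6 had 1 each. A match of letters is a description, and binding was not measured.

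To ask how the transcripts behaved after the change of medium, each later time was compared with 0 min within a genotype. Chase time is also the batch named in the labels, and time and batch cannot be told apart. In control cells at 60 min, 8 of 25 members tested changed (edgeR quasi-likelihood test, Benjamini-Hochberg adjusted p under 0.05), against 3.33% of all 10057 genes tested. Of these 7 were higher (1.75% of all genes were) and 1 was lower (1.58%). Fosb, among the 7, passed the low-count filter only through its 60 min libraries, so it could not have been called lower. Per the study's methods the 3 replicates of a genotype were biological, and the labels give their numbers alone.

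The AP-1 genes Fosb and Jun rose in control. Fosb had 0, 0 and 8 reads at 0 min and 17, 33 and 16 reads at 60 min, or 3.16, 5.97 and 3.28 CPM, with no overlap between the times, for a log2 difference of 3.14 ± 0.70 (SE, adjusted p = 0.00585). Jun, its dimer partner in AP-1, was at 3.48, 3.95 and 4.70 CPM at 0 min and 9.85, 17.7 and 9.02 CPM at 60 min, a log2 difference of 1.60 ± 0.33 (adjusted p = 0.00245). At 180 min both were below every library of 60 min, with Fosb at 0.198 to 0.904 CPM and Jun at 4.34 to 7.54 CPM. Junb and Jund were measured well and did not pass the test, with log2 differences of -0.28 ± 0.12 and 0.22 ± 0.10.

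The Krüppel-like factors Klf2, Klf6 and Klf10 rose together. Klf6, a zinc-finger activator, went from 80.3, 91.7 and 83.7 CPM at 0 min to 119, 148 and 99.3 CPM at 60 min, a log2 difference of 0.54 ± 0.11 (adjusted p = 0.0015). Klf10, a repressor induced by TGF-β, was at 16.5, 15.8 and 16.7 CPM and then 35.1, 22.4 and 29.1 CPM, a log2 difference of 0.84 ± 0.18 (adjusted p = 0.00469). Klf2 was at 6.58, 14.5 and 6.83 CPM and then 15.1, 23.7 and 18.3 CPM, a log2 difference of 1.06 ± 0.26 (adjusted p = 0.013). In each of these genes the lowest library at 60 min was above the highest at 0 min.

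Btg1 and Pim1 changed in opposite directions, and both were called at 60 min in each of the 12 alternatives run. Btg1, an antiproliferative factor that recruits deadenylases, was at 42.8, 43.2 and 34.9 CPM at 0 min and 82.7, 85.1 and 67.5 CPM at 60 min, a log2 difference of 0.98 ± 0.12 (adjusted p = 8.51e-07). It stayed high at 180 min, at 96.2, 90.5 and 104 CPM. Pim1, a survival kinase induced by STAT signaling, was at 807, 952 and 856 CPM at 0 min, 608, 475 and 468 CPM at 60 min and 422, 404 and 409 CPM at 180 min. It had thus fallen by 0.73 ± 0.07 on the log2 scale at 60 min (adjusted p = 1.08e-08) and by 1.06 ± 0.06 at 180 min (adjusted p = 1.57e-13). At 540 min Pim1 was at 724, 718 and 700 CPM, between its earlier levels and below every library of 0 min. Of the Btg1 reads, 50.6% mapped to more than 1 place, and without such reads Btg1 was called at 60 and 180 min as well, at log2 differences of 0.89 ± 0.17 and 1.29 ± 0.17.

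Dusp6, the cytoplasmic ERK phosphatase, also rose at 60 min, from 127, 102 and 106 CPM to 128, 161 and 134 CPM, a log2 difference of 0.35 ± 0.10 (adjusted p = 0.0278). The feedback genes Socs3 and Nfkbia were at 32.3 to 44.2 and 188 to 210 CPM at 0 min and 45.9 to 57.6 and 218 to 251 CPM at 60 min, and did not pass the test at that time.

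**Figure D1:**
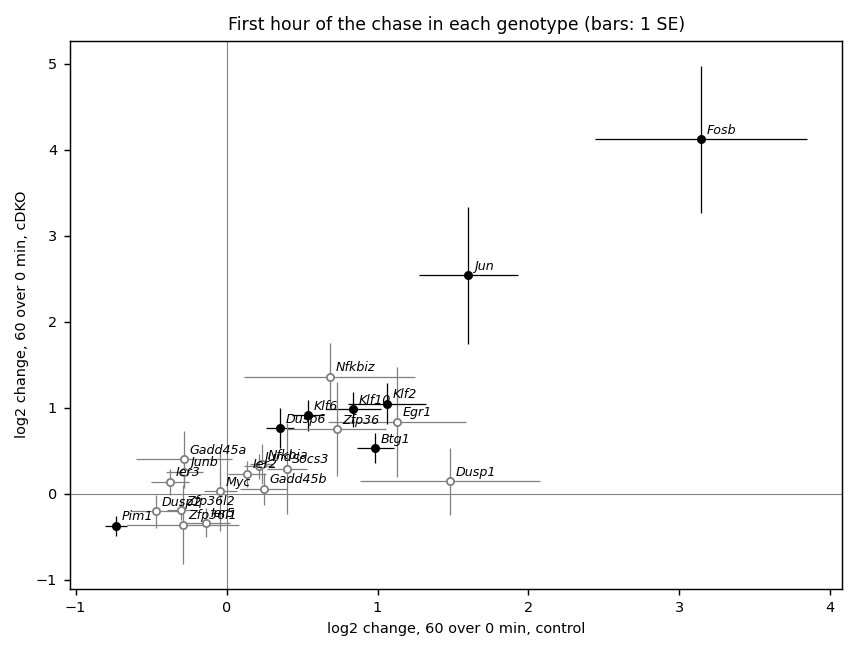
Log2 change in abundance from 0 to 60 min in control (horizontal axis) and in cDKO (vertical axis), with a point for each member tested in both, bars of 1 SE from the edgeR fits of 3 against 3 libraries, and filled points for the 8 members called in control. Fosb lies farthest out on both axes, followed by Jun, and Pim1 is at -0.73 in control and -0.37 in cDKO.

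In cDKO cells no member was called at 60 min, of 28 tested, and no gene of 10085 was (0%), with edgeR. At an unadjusted p under 0.05 edgeR counted 9 members (3.72% of all genes), and DESeq2 called 2, beside 8 genes in all. The cDKO libraries that share a replicate number deviated together across times, so the fit with the replicate number as a block is given beside it. That fit called 2 members, against 0.0595% of all genes: Fosb with a log2 difference of 4.18 ± 0.49 and Klf6 with 0.90 ± 0.11, both at an adjusted p of 0.00672. Fosb was at 2.05, 0 and 0.657 CPM at 0 min and 19.9, 6.39 and 19.3 CPM at 60 min in the 3 cDKO replicates. Here too Fosb passed the low-count filter only through its 60 min libraries. Klf6 was at 114, 124 and 150 CPM and then 236, 193 and 302 CPM. Jun, Klf2, Klf10, Btg1 and Dusp6 had log2 differences of 2.54 ± 0.80, 1.05 ± 0.24, 0.98 ± 0.20, 0.53 ± 0.17 and 0.76 ± 0.23 without the block, with signs as in control, and did not pass.

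The test of the difference between genotypes in the first hour called no member of 29 and no gene of 10550 (0%) with edgeR, and DESeq2 called no member. At an unadjusted p under 0.05 edgeR counted 3 members (2.92% of all genes): Junb, Ier3 and Pim1. Their differences in log2 change were 0.53 ± 0.22, 0.51 ± 0.21 and 0.35 ± 0.16 (cDKO minus control). For the change to 180 min edgeR also called no member of 27 (0% of genes). Jund, Klf10 and Btg1 were at an unadjusted p under 0.05 (2.89% of all genes). For the change to 540 min it called none of 28 (0% of genes), and no member was at an unadjusted p under 0.05. DESeq2 called no member at either time.

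Later in the chase the control members split. At 180 min 7 of 22 members tested had changed, against 7.27% of all genes, with 3 higher (3.98% of all genes) and 4 lower (3.29%). Nfkbia, which encodes the inhibitor IκBα, was at 210, 197 and 188 CPM at 0 min and 258, 297 and 256 CPM at 180 min, a log2 difference of 0.46 ± 0.08 (adjusted p = 0.000157). Zfp36l2 was at 135, 122 and 130 CPM and then 95.4, 84.4 and 80.8 CPM, with no overlap, and had fallen by 0.55 ± 0.09 (adjusted p = 0.000175). Dusp2, a nuclear phosphatase of MAP kinases, fell by 0.80 ± 0.19 and Ier2 fell by 0.55 ± 0.15 on the log2 scale. Klf6 was still higher by 0.33 ± 0.09 and Btg1 by 1.29 ± 0.11.

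At 540 min 6 of 22 control members differed from 0 min, against 16.2% of all genes, with 2 higher (Btg1 and Nfkbia, 8.06% of all genes) and 4 lower (Ier2, Dusp6, Zfp36l2 and Pim1, 8.18%). Dusp6 had the largest of these falls, from 127, 102 and 106 CPM to 79.1, 45.0 and 86.5 CPM, a fall of 0.71 ± 0.17 on the log2 scale (adjusted p = 0.00709). Without reads that map to several places, an alternative chosen after seeing the data, Btg1 and Zfp36l2 were no longer called at 540 min (adjusted p = 0.0626 and 0.0638). The members called at 60 min and those at 540 min overlapped in Btg1, Dusp6 and Pim1, and Dusp6 had changed sign.

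In cDKO no member of 27 was called at 180 min (0.00986% of genes were) and none of 26 at 540 min (0.117% of genes were), with edgeR. Unadjusted p-values under 0.05 numbered 6 and 8 (5.10 and 11.1% of all genes), and DESeq2 called 1 and 3, beside 9 and 123 genes in all. With the replicate block, Pim1 was called at 180 min, a fall of 0.84 ± 0.09 on the log2 scale (adjusted p = 0.0111, 0.0986% of genes called). Its libraries were at 928, 878 and 781 CPM at 0 min and 445, 545 and 463 CPM at 180 min. At 540 min the block called 4 members, all lower (1.25% of genes called): Egr1, Klf6, Zfp36l2 and Pim1, with log2 differences of -2.91 ± 0.43, -0.65 ± 0.12, -0.73 ± 0.13 and -0.56 ± 0.08. Egr1 passed the low-count filter there only through its 0 min libraries.

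**Figure D2:**
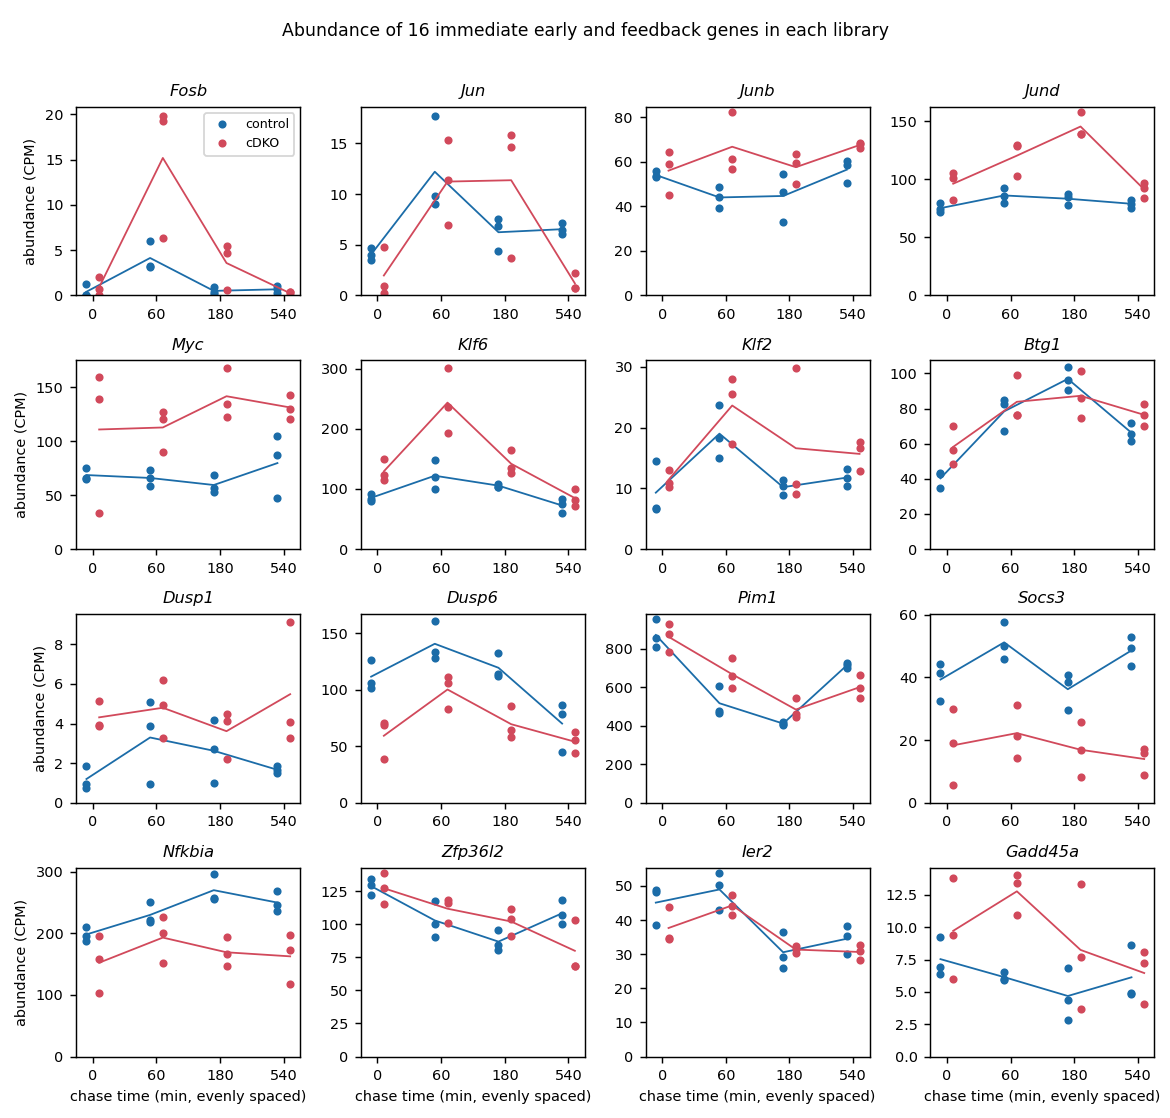
Abundance in CPM (linear axis from 0) against chase time (min, evenly spaced positions) for 16 members, with a point for each of the 3 libraries and a line through the means, in control (blue) and cDKO (red). Fosb and Klf6 peak at 60 min in both genotypes, Pim1 is lowest at 180 min in both, and the Socs3 libraries of cDKO lie below those of control at each time.

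To ask how the level of the members differed between genotypes, these were compared at each time, which lies within 1 batch. The cultures also differed in the markers of other cells given above, so an effect of the deletion and of culture content cannot be told apart. Of the 29 members tested at some time, 13 were called at 1 time or more, 8 higher and 5 lower in cDKO. The share of all genes called at 1 time or more was not counted, so the 13 cannot be set against the single-time shares below. At 0 min 3 of 24 were called (13.4% of all genes were), at 60 min 9 of 29 (20.2%), at 180 min 6 of 23 (18.9%) and at 540 min 5 of 24 (19.2%). Higher in cDKO were 2, 7, 3 and 1 of them at 0, 60, 180 and 540 min (6.72, 9.97, 9.1 and 8.89% of all genes were), and lower were 1, 2, 3 and 4 (6.64, 10.2, 9.78 and 10.4%). The members' share called was therefore not above that of all genes at 0 min, and the 7 of 29 higher at 60 min stood farthest from it. The median log2 difference of the members was 0.15, 0.29, 0.35 and 0.07 at the 4 times, and that of all genes lay within 0.01 of 0.

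Among the transcription factors, Klf6 and Myc were higher in cDKO. Klf6 was called at 0, 60 and 180 min, and at 60 min its cDKO libraries (236, 193 and 302 CPM) were all above its control libraries (119, 148 and 99.3 CPM). The log2 difference there was 0.98 ± 0.17 (adjusted p = 0.00315), and it was 0.62 ± 0.13 at 0 min and 0.41 ± 0.11 at 180 min (adjusted p = 0.0122 and 0.0282). Myc, the growth regulator, was at 68.4, 53.2 and 56.6 CPM in control and 135, 168 and 122 CPM in cDKO at 180 min, a log2 difference of 1.23 ± 0.14 (adjusted p = 0.000214). At 60 min the Myc difference was 0.75 ± 0.15 (adjusted p = 0.0052). At 0 min cDKO replicate 2 was at 33.7 CPM of Myc and the other replicates at 159 and 139 CPM, so the cDKO libraries lay on both sides of control (64.8 to 74.8 CPM), and Myc was not called.

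The AP-1 genes differed by member and time. Jund was higher in cDKO at 60 and 180 min, and at 180 min it was at 84.4, 87.5 and 77.7 CPM in control and 139, 139 and 158 CPM in cDKO, a log2 difference of 0.79 ± 0.10 (adjusted p = 0.000426). Fosb and Junb were higher in cDKO at 60 min, by 1.84 ± 0.45 and 0.58 ± 0.16 (adjusted p = 0.0174 and 0.0269). The cDKO libraries of Fosb at 60 min, 19.9, 6.39 and 19.3 CPM, lay above the control libraries, with replicate 2 just above the highest of them, 5.97 CPM. Jun was lower in cDKO at 540 min, at 2.17, 0.700 and 0.712 CPM against 6.10, 6.41 and 7.10 CPM in control, a log2 difference of -2.45 ± 0.49 (adjusted p = 0.00768). These Jun values rest on 12, 4 and 4 reads in cDKO, and Jun passed the low-count filter there only through its control libraries.

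Egr1, a zinc-finger factor induced by ERK, was at 6.32, 5.97 and 3.69 CPM in control and 25.5, 10.4 and 32.4 CPM in cDKO at 60 min, a log2 difference of 2.06 ± 0.41 (adjusted p = 0.00549). Fosb and Egr1 were lowest in cDKO replicate 2 at 0 and 60 min, as were Myc at 0 min and Socs3 at every time. Gadd45a, a stress sensor, was higher in cDKO at 60 min by 1.03 ± 0.25 (adjusted p = 0.0165), with 10.9, 13.4 and 14.03 CPM against 6.50, 5.97 and 5.95 CPM.

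Of the feedback inhibitors, Socs3, Dusp6 and Nfkbia were called lower in cDKO and Dusp1 higher. Socs3 was lower in cDKO at 60, 180 and 540 min, and at 540 min it was at 43.6, 52.9 and 49.3 CPM in control and 15.9, 8.75 and 17.3 CPM in cDKO, a log2 difference of -1.81 ± 0.23 (adjusted p = 0.000825). Its difference was -1.22 ± 0.24 at 60 min and -1.11 ± 0.33 at 180 min (adjusted p = 0.00517 and 0.0398). Socs3 did not overlap between genotypes at any of these times.

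Dusp6 was lower in cDKO at 0, 60 and 180 min. At 180 min it was at 112, 114 and 132 CPM in control and 85.6, 58.4 and 64.8 CPM in cDKO, a log2 difference of -0.80 ± 0.15 (adjusted p = 0.00401). At 0 min the difference was -0.91 ± 0.21 (adjusted p = 0.022) and at 60 min -0.51 ± 0.13 (adjusted p = 0.0199). Nfkbia was lower in cDKO at 180 min, at 166, 147 and 194 CPM against 258, 297 and 256 CPM, a log2 difference of -0.69 ± 0.11 (adjusted p = 0.0019), and at 540 min by -0.63 ± 0.16 (adjusted p = 0.0251).

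Dusp1, a phosphatase of JNK and p38, was higher in cDKO at 0 and 540 min, by 1.87 ± 0.49 and 1.70 ± 0.49 (adjusted p = 0.0365 and 0.0405). It was at 0.968, 1.88 and 0.758 CPM in control and 3.88, 5.12 and 3.94 CPM in cDKO at 0 min, with no overlap, and was called in 6 of 13 alternatives there. At both times Dusp1 passed the low-count filter only through its cDKO libraries, so it could not have been called lower. Pim1 was lower in cDKO at 540 min by -0.26 ± 0.08 (adjusted p = 0.0429), and this was called in 2 of 13 alternatives. Jun and Socs3 at 540 min, Klf6 and Socs3 at 60 min, and Jund, Myc, Dusp6 and Nfkbia at 180 min were called in all 13.

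The other 16 members tested (Fos, Egr3, Ier2, Ier3, Ier5, Klf2, Klf10, Btg1, Dusp2, Zfp36, Zfp36l1, Zfp36l2, Nfkbiz, Gadd45b, Nr4a1 and Tnfaip3) were not called between genotypes at any time, with log2 differences from -0.79 ± 0.34 for Zfp36 at 540 min to 1.56 ± 0.70 for Tnfaip3 at 60 min. Egr2, Klf4 and Atf3 did not pass the low-count filter at any time.

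The counts depended on single libraries. Without control replicate 1 or 3 no member was called at 0 min, without control replicate 2 1 was, and without cDKO replicate 2 or 3 the count was 8 or 6. At 60 min it was 4 without control replicate 3, at 180 min 11 without cDKO replicate 2, and at 540 min 2 without control replicate 3 and 3 without control replicate 1 or 2. The shares of all genes called without these libraries are not given here.

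**Figure D3:**
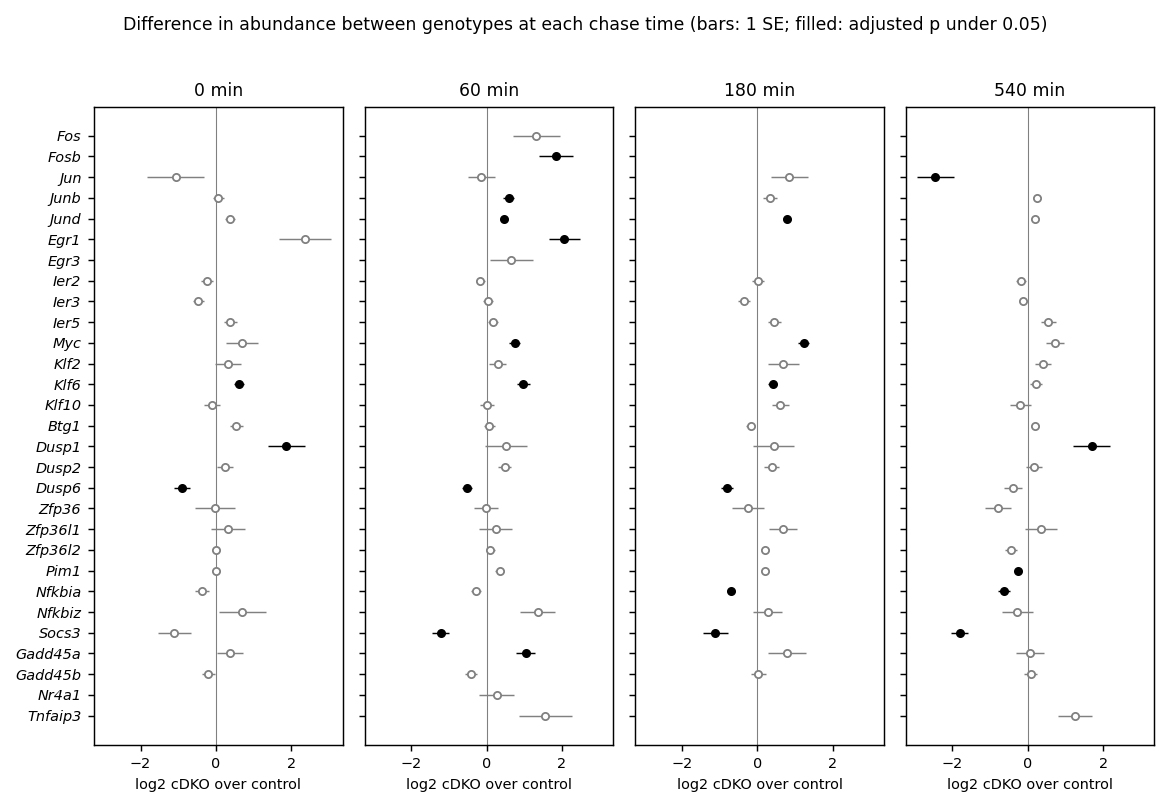
Log2 difference in abundance, cDKO over control, at each of the 4 chase times for each member tested, with bars of 1 SE (edgeR, 3 against 3 libraries) and filled points where the adjusted p is under 0.05. Klf6, Myc and Jund lie to the right of 0 at 60 and 180 min, and Socs3, Dusp6 and Nfkbia to the left.

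The conversion rate, the percent of T bases covered by reads that were read as C, each read counted, was used for decay. At 0 min the library-wide rate was 1.64 ± 0.0261% for control but 0.736 ± 0.169% for cDKO (SD, n = 3), and at 540 min it was 0.314 ± 0.0133% and 0.187 ± 0.0238%. The cDKO replicates were at 0.821, 0.845 and 0.542% at 0 min. Coverage, the T bases summed over the reads of a gene, was at least 100 in every library for 20 members. The other 12 (Fos, Fosb, Jun, Egr1, Egr2, Egr3, Klf4, Dusp1, Nfkbiz, Atf3, Nr4a1 and Tnfaip3) have no half-life here. They include the nonamer carriers Fos, Dusp1 and Tnfaip3.

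At 0 min, after 12 h of labeling, the rate of a member relative to its library did not pass the test between genotypes in any of 22 members (0.297% of all genes were called), with edgeR. Unadjusted p-values under 0.05 numbered 4 (7.90% of all genes), all higher in cDKO: Nfkbia, Dusp6, Junb and Zfp36l1. Their log2 differences were 0.35 ± 0.12, 0.36 ± 0.15, 0.44 ± 0.20 and 1.31 ± 0.50, and DESeq2 called none. Without the library-wide rate in the offset, so that the absolute rate was compared, 17 were called. The library-wide rate itself differed between genotypes, and the share of all genes called at this setting is not given here. The 17 therefore say nothing particular about the members.

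The decay of the members was steep in control. Pim1 went from rates of 1.67, 1.51 and 1.90% at 0 min to 1.22, 1.095 and 1.18% at 60 min, 0.441, 0.320 and 0.343% at 180 min and 0.0484, 0.0648 and 0.0462% at 540 min. Dusp6 went from 2.14, 2.62 and 2.07% to 1.22, 0.931 and 1.05% at 60 min and 0.411, 0.174 and 0.393% at 540 min. A single exponential gave half-lives in control from 24.2 min for Gadd45a to 155 min for Jund. The Gadd45a value is uncertain: its replicates were at 25.7, 74.0 and 1 min, the last being the shortest allowed. Its pooled rates at 60 and 180 min rest on 7 and 8 conversions. Over the 20 members the median was 66.4 min, beside 199 min over all 9256 genes fitted.

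All 20 members were below that median in control, and 18 were below the first quartile of all genes, 126 min. The shortest after Gadd45a were Klf10 (38.7 min), Ier3 (44.4), Dusp2 (48.8), Socs3 (54.4), Ier5 (55.5), Myc (56.1) and Klf6 (61.4). Jund and Btg1 (145 min) were the longest. These fits take abundance as steady, and several members changed in abundance over the chase. With the rate multiplied by CPM, control half-lives were 67.9 min for Klf10, 92.6 for Klf6 and 453 for Btg1. They were 30.4 min for Dusp2, 34.1 for Ier3 and 48.7 for Pim1. The median of the members was then 71.3 min, beside 198 min over all genes. Zfp36, Zfp36l1 and Zfp36l2, with the nonamer, had half-lives of 84.4, 67.8 and 68.4 min, while Ier2 and Gadd45b, with no pentamer, had 97.02 and 65.0 min. The control replicates of Zfp36 spread over 244, 28.0 and 72.8 min and those of Zfp36l1 over 95.7, 24.7 and 370 min. Of the Zfp36l2 reads, 39.8% mapped to more than 1 place. The distance to all genes depended on the model: a straight line through the log rates, its intercept free, gave members a median of 144 min for control beside 149 min over all genes.

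**Figure D4:**
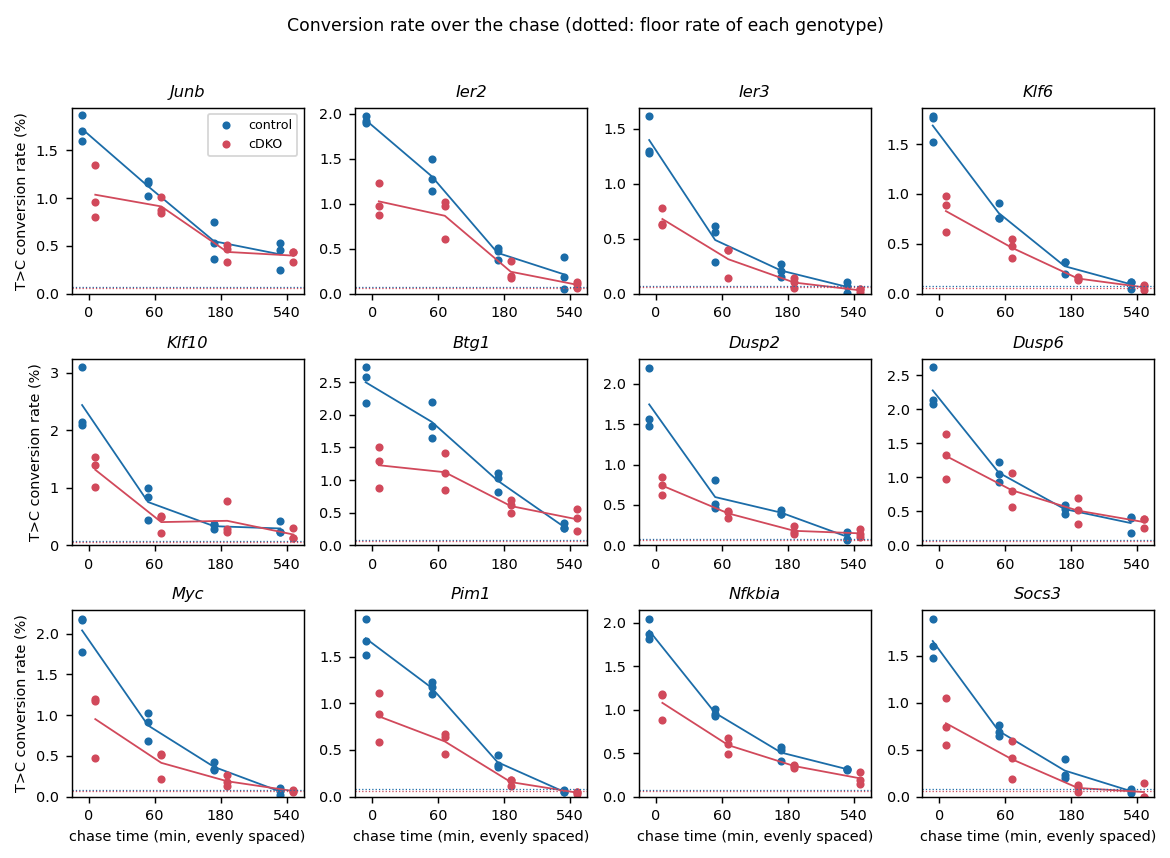
Conversion rate in percent (linear axis) against chase time (min, evenly spaced positions) for 12 members, with a point per library and a line through the means, in control (blue) and cDKO (red), and dotted lines at the floor rate of each genotype. Rates at 0 min are higher in control, and at 540 min Myc, Pim1 and Socs3 lie near the floor while Junb, Dusp6 and Nfkbia stay above it in both genotypes.

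In cDKO the members' median half-life was 91.2 min, beside 231 min over all genes. It was longer in cDKO than in control in 17 of 20 members, beside 65.5% of all genes, with a median log2 ratio of 0.40 beside 0.20. A straight line through the log rates, with its own intercept, gave a median of 0.35 for the members and 0.35 for all genes, with 17 of 20 members and 81.7% of all genes longer. In a further fit the floor rate of cDKO (0.0620%) was subtracted from the rates of both genotypes. The medians were then 0.24 and 0.11, and 15 of 20 members were longer. Shorter in cDKO were Zfp36, Klf2 and Pim1, with log2 ratios of -0.58, -0.14 and -0.08. When the rate was multiplied by CPM before the fit, Klf2 and Pim1 were longer, at 0.66 and 0.33, and 19 of 20 members were. The ratios of 10 of the 20 members changed sign under at least 1 alternative. For 10 members the spread of the 0 min rates was within the study's bound in both genotypes: Junb, Ier2, Ier3, Ier5, Klf6, Klf10, Btg1, Dusp2, Dusp6 and Nfkbia. All 10 were longer in cDKO, with a median log2 ratio of 0.57, beside 68.6% longer and a median of 0.19 over the 3712 genes within the bound.

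The ratios were highest, among the members within the bound, for Junb, Dusp6 and Btg1. The Junb half-life was 121 min for control and 255 min for cDKO, but replicates overlapped, at 173, 115 and 99.5 min for control and 537, 171 and 202 min for cDKO. Dusp6 had 68.1 and 138 min, and its replicates did not overlap, at 86.8, 50.6 and 72.7 min (control) and 120, 119 and 241 min (cDKO). Btg1 had 145 and 260 min, with replicates at 107, 212 and 129 min and at 195, 347 and 261 min.

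Replicate half-lives that did not overlap and were longer in cDKO were found in 2 of 20 members, Dusp6 and Gadd45b, beside 12.3% of all genes, and shorter in 0 of 20, beside 2.73%. With 3 against 3 replicates an exact permutation test cannot give a p below 0.1. Gadd45b replicate 3 in cDKO reached the longest half-life allowed, 10000 min, and its 0 min rate was 0.0925%, against 0.949 and 0.904% in the other replicates. Multiplying the rate by CPM, which follows the labeled amount rather than the share, moved single members, to log2 ratios of 2.09 for Junb, 1.48 for Dusp6 and 0.26 for Btg1.

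**Figure D5:**
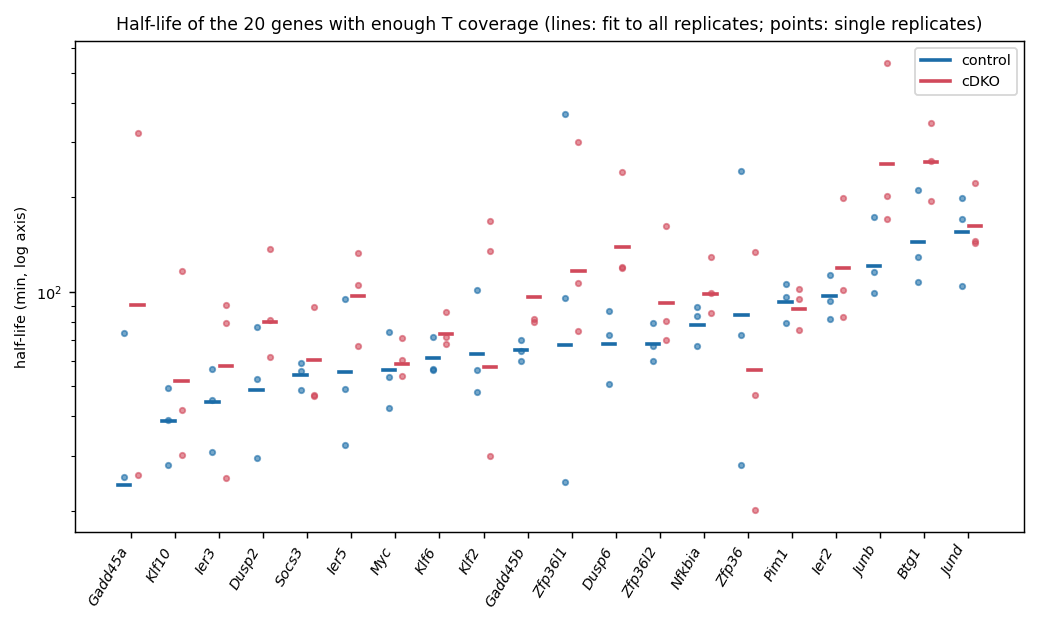
Half-life in min (log axis) of the 20 members with enough coverage, in order of the control value, with horizontal lines for the fit to the 12 libraries of a genotype and points for single replicates, in control (blue) and cDKO (red). Points at a bound of the fit (Gadd45a replicate 3 in both genotypes and Gadd45b replicate 3 in cDKO) are not drawn. The cDKO line lies above the control line in 17 of 20 members, and the replicates of 18 overlap.

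A test of the slope of the conversion rate, genotype by hour, called none of 20 members with edgeR (0.13% of all genes were called). At an unadjusted p under 0.05 edgeR counted 4 of 20 members (17.2% of all genes): Myc, Klf2, Btg1 and Gadd45b. Btg1 had the smallest, with a difference in slope of 0.16 ± 0.04 log2 units per h, slower loss in cDKO (adjusted p = 0.0767). The replicate block within genotype (0.641% of all genes called) and DESeq2 (207 genes called in all) each called 1 member, and in the block this was Btg1 (adjusted p = 0.0412). In each library 38.9 to 57.7% of Btg1 reads mapped to several places, and whether its conversions came from other loci was not tested.

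No unlabeled library was used here, so the conversion background was bounded by a floor, the mean rate at 540 min of 411 short-lived genes, 0.0755 ± 0.00137% for control cells and 0.0620 ± 0.00537% for cDKO cells (SD over 3 libraries). The floor was set without 7 members that met its criteria. At 180 min the pooled rate of every one of the 20 members had an exact 95% binomial interval above the floor in control, while in cDKO 6 did not. At 540 min 12 members were not above it in control and 13 in cDKO. The intervals of 9 and 11 of these held the floor, and those of 3 in control (Pim1, Zfp36l2 and Gadd45b) and 2 in cDKO (Ier5 and Pim1) lay below it. Above it at 540 min in control were Junb, Jund, Ier2, Klf10, Btg1, Dusp6, Zfp36l1 and Nfkbia. In cDKO they were Junb, Klf10, Btg1, Dusp2, Dusp6, Nfkbia and Gadd45a. The intervals cover counting error only, since reads carry no molecular identifiers.

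Of the members below the coverage limit, Egr2 had 23 reads in all 24 libraries and Klf4 had 39. Egr3 was at 0.564 to 1.37 CPM in control and 0.176 to 10.96 CPM in cDKO at 0 min. Fos, the founding AP-1 gene, was at 1.94, 1.32 and 0.152 CPM at 0 min and 2.60, 1.81 and 1.64 CPM at 60 min in control, and at 1.83, 0.529 and 6.79 and then 6.33, 1.20 and 7.96 CPM in cDKO, with cDKO replicate 2 lowest at both times. Atf3, a stress-induced repressor, was at 0 to 0.376 CPM at 0 min and 0.557 to 2.05 CPM at 60 min in control. Nr4a1, an orphan nuclear receptor, was at 0.455 to 1.55 and 1.49 to 3.28 CPM. Nfkbiz, an atypical IκB protein, was at 2.63 to 3.53 CPM at 0 min and 5.12 to 9.79 CPM at 60 min in cDKO, with no overlap, and was not called there (log2 difference 1.36 ± 0.39). Tnfaip3, a ubiquitin editor that restrains NF-κB, was at 0.188 to 1.52 CPM at 0 min in control.

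Promoter sequences of 26 of the 33 members were present in the RefSeq table of GRCm38.p6, 250 bases before to 50 after the start site, and were searched on both strands for the κB site, the CArG box bound by serum response factor and the cAMP response element TGACGTCA. κB matches were found in 6 members (Fos, Fosb, Ier3, Nfkbia, Nr4a1 and Tnfaip3), beside 5.14% of 27025 genes. CArG matches were found in 3 (Egr2, Dusp5 and Zfp36), beside 1.81%, and the cAMP response element in 1 (Dusp1), beside 2.03%. By promoter rather than by gene the shares were 4.51, 1.63 and 1.79% of 32851. The κB sites of NF-κB feedback genes and Ier3, CArG boxes of 2 members and the Dusp1 element are shown, with the motif in capitals, because these factors are textbook activators of immediate early genes.
Nfkbia, κB site, chr12:55492659-55492684, plus strand: caggcgcgGGGAATTTCCaagccagt
Tnfaip3, κB site, chr10:19015518-19015543, minus strand: ctcacgcgGGGACACCCCggggcggg
Ier3, κB site, chr17:35821613-35821638, minus strand: cgggccggGGGGAACTCCgcccttcg
Egr2, CArG box, chr10:67537789-67537814, plus strand: tcctcagtCCATATATGGgcagcgac
Zfp36, CArG box, chr7:28379269-28379294, minus strand: aggccgccCCATAAAAGGagaaagct
Dusp1, cAMP response element, chr17:26508600-26508623, minus strand: agggcgggTGACGTCAccgcccgg

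Of the members shown, Nfkbia was higher than at 0 min in control at 180 and 540 min, and lower in cDKO than in control at those times. Dusp1 was higher in cDKO at 0 and 540 min. Ier3, Tnfaip3 and Zfp36 were called in no comparison of abundance with edgeR, and Egr2 did not pass the low-count filter between genotypes. A link between the sites and these changes was not tested. Factor binding was not measured, and a window without a match says only that these letters are not in it.

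Other genes of the same response were taken from lists. Their counts are to be read against the shares of all genes given above. Of 38 further immediate early and feedback genes, 4 of 26 tested changed at 60 min in control: Trib1, Rgs2 and Mcl1 rose, by log2 differences of 1.85, 0.77 and 0.28, and Socs1 fell by 0.70. Between genotypes 4 of 25, 8 of 27, 7 of 27 and 5 of 27 were called at 0, 60, 180 and 540 min. Trib1, a pseudokinase, was higher in cDKO at every time, by 2.46 ± 0.28 at 0 min, and Rgs2, which limits G protein signaling, was lower, by -0.87 ± 0.19. Their half-lives in control had a median of 84.5 min over 23 genes, and 17 of 23 were longer in cDKO, with a median log2 ratio of 0.51.

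Among receptors, kinases and transcription factors upstream of the members, 0 of 30 changed at 60 min in control, 2 of 31 at 180 min and 3 of 32 at 540 min. Between genotypes 4 of 31 were called at 0 min and 13, 11 and 9 of 31 at the later times. Il6ra, the receptor for the IL-6 in the medium, was at 62.4 ± 8.13 CPM in control and 7.13 ± 6.36 CPM in cDKO at 0 min, a log2 difference of -3.13 ± 0.48 (adjusted p = 0.00329). Csf2rb, the shared receptor subunit for IL-3, was higher in cDKO by 1.07 ± 0.18 (adjusted p = 0.0055), and Elk1, a partner of serum response factor, by 2.43 ± 0.26 (adjusted p = 0.000432). Il6ra was also called lower at 60, 180 and 540 min.

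Of the NF-κB pathway 1 gene was called between genotypes at each time, of 18 or 19 tested: Bcl3, a nuclear IκB protein, lower in cDKO by -1.96 ± 0.30 at 0 min and -2.05 ± 0.22 at 540 min. Of 11 readers of AU-rich elements 1, 2, 1 and 3 were called at the 4 times. Higher in cDKO were Khsrp at 0 min (log2 difference 0.37) and Khsrp and Tial1 at 60 min (0.33 ± 0.07 and 0.44 ± 0.11). Lower were Tia1 at 180 min (-0.37) and Tia1, Rc3h1 and Rc3h2 at 540 min (-0.42, -0.43 and -0.48). Heat shock genes, a check on handling at the change of medium, gave 0 calls of 4 at 60 min in control, and summed to 937 ± 48.3 CPM at 0 min and 894 ± 79.1 CPM at 60 min. At 180 min 3 of 4 were lower than at 0 min, Hsph1, Hspa8 and Hsp90aa1 at -0.67, -0.53 and -0.25, and at 540 min 2 of 5 were called, Hspa8 higher at 0.48 and Hsp90aa1 lower at -0.60. The sums were 684 ± 35.4 CPM and 1103 ± 14.2 CPM at these times.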

How the data were processed

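SLAM-seq libraries (QuantSeq 3′ FWD) of 24 samples were mapped and tabulated by the authors with SlamDunk v0.4.3 on mm10. Per the file headers the deposited tables give, per 3′UTR interval, whole-number counts of reads, conversions and covered T positions, the deposited CPM scaled to filtered reads, and the conversion rate as a fraction of T positions. Filtering and masking settings were not given in the sources used here. Filtered reads were 9552906 to 13882269 per library.

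Of 39419 lines, 39096 matched a RefSeq symbol (99.18%). Overlapping intervals of a gene were reduced to the longest and counts were summed per gene. CPM and rates were recomputed from counts. Each comparison used the edgeR 4.0.16 quasi-likelihood test (TMM, filterByExpr, R 4.3.3) with Benjamini-Hochberg adjustment over all genes, called at 0.05. Conversions were tested with T coverage as offset, for genes with coverage of at least 100 per library and at least 50 conversions in all (20 at 0 min). Half-lives were fitted by least squares (grid search, NumPy 2.4.6) to rates divided by the 0 min mean of the genotype, bounded to 1 to 10000 min. Exact binomial intervals were computed with SciPy 1.17.1. The study's bound is an SD below 0.3 at 0 min. The floor needed coverage of at least 1000 and a control rate at 180 min no more than 0.2 times that at 0 min.

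Groups came from the labels. Over 8340 genes with at least 20 reads per library, deviations from group means of cDKO libraries with the same replicate number correlated at 0.142 to 0.596 between times, so the numbers pair these samples. In control they correlated at -0.0579 to 0.0820 and between genotypes at -0.0728 to 0.120, so no pairing was seen there. Replicates that differ little would give such values too, so a pairing in control cannot be told from these values. Alternatives were DESeq2 1.42.0, other size factors, no filter, the interval with most reads, 1 fit of all libraries, the replicate block, other offsets or time ranges, and each replicate left out; removal of multimapping reads was added after seeing the data. Named genes were the members and the genes called in the other lists. The members and lists were chosen with earlier results of these data known. Scripts were tested on simulated data.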

Additional observations from a re-analysis of the deposited data

How the results depend on the processing

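No count, median or called member turned its direction under the alternatives run. The half-life ratios of 10 of 20 members (Jund, Ier2, Ier5, Myc, Klf2, Klf10, Zfp36, Zfp36l1, Pim1 and Socs3) changed sign under at least 1, from -3.49 to 1.25 for Zfp36l1. The counts of members called moved by more than 1.5 times in these cases: at 0 min between genotypes DESeq2 called 6 and the fit of all 24 libraries 7, beside 3, and at 540 min the replicate block called 3, beside 5. Of all genes DESeq2 called 1559 at 0 min and the replicate block 1580 at 540 min. The share of all genes in the fit of all 24 libraries is not given here. Within cDKO, where 0 were called, DESeq2 called 2, 1 and 3 members at 60, 180 and 540 min and the replicate block 2, 1 and 4. Of all genes DESeq2 called 8, 9 and 123 at these times and the replicate block 6, 10 and 128. For the conversion slope DESeq2 and the replicate block called 1 each, beside 0, with 207 and 59 genes called in all. For the rate at 0 min T coverage alone called 17, beside 0. That last setting compares absolute rates, which differed between genotypes library-wide, and its share of all genes is not given here. The replicate block moved no other count past this limit, though Dusp1 at 0 and 540 min and Pim1 at 540 min lost their calls (adjusted p = 0.0639, 0.0898 and 0.0541). For samples of control and of different genotypes no pairing by number was seen.

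With each replicate left out, the counts between genotypes ranged from 0 to 8 at 0 min, 4 to 12 at 60 min, 4 to 11 at 180 min and 2 to 6 at 540 min. The lowest came without control replicate 1 or 3 at 0 min, without control replicate 3 at 60 and 540 min, and without control replicate 1 or 3 at 180 min. Within control they ranged from 5 to 9, 4 to 7 and 3 to 7, lowest without 60 min replicate 2, without 0 min replicate 3 or 180 min replicate 1, and without 0 min replicate 3. In cDKO, for the differences of change and for conversions they were 0 to 0. The shares of all genes called with a replicate left out are not given here. The median log2 half-life ratio ranged from 0.34 to 0.57, and from 0.24 to 0.57 over the other settings. Named members lost their call in 22 of 286 checks under other settings and in 78 of 264 with a replicate left out. Without multimapping reads, chosen after seeing the data, Pim1 at 540 min between genotypes lost its call (adjusted p = 0.0678) and Zfp36l2 at 60 min in control gained one (adjusted p = 0.0238). For members with few reads, depth limits what could be seen.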
